A study of Mus musculus with 8 samples.

Results

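Fibroblast stroma genes were followed through mouse ESC cultures grown with and without feeders. The genes are Postn, Lox, Vcam1, Sdpr, Enpp2, Thy1, Dcn, Lum, Serpinf1 and Dnm3os, 10 of the 20278 genes in the files. They were chosen by name as fibroblast genes that might report feeder RNA, with their levels in the cultures with feeders against those without already known. The levels with and without feeders are therefore described without a test. N33 is a mouse ESC line of the C57BL/6 strain, and 1 line was used for all samples. Cells were grown in 4 ways with 2 samples each, which the series text calls biological duplicates, and LIF at 1000 U/ml was present in every culture. The −F cultures had 20% serum on gelatin and no feeders. The F cultures had the same serum and mitomycin C-treated mouse embryonic fibroblasts (MEFs) as feeders, which no longer divide. The F2i cultures had serum, feeders and 2i, the pair of inhibitors CHIR99021 (of Gsk3β) and PD0325901 (of Mek), at doses that the labels do not give for this group. The NB2i cultures had N2B27 medium with 3 µM CHIR99021 and 1 µM PD0325901 on poly-L-ornithine and laminin, with neither serum nor feeders. F2i and NB2i thus differ in feeders, serum and coating together. In its qPCR methods, the paper separates ESCs grown with feeders from them by adherence, in repeated steps, before RNA was taken. Its RNA sequencing methods do not repeat that step. The RNA of F and F2i is that of ESCs and of whatever feeder cells were taken with them. In bulk RNA, fewer feeder cells and less RNA of a gene per feeder cell cannot be told apart.

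The expected counts of a sample summed to between 20129641 and 20664488. An expected count is RSEM's estimate of the reads from a gene, and FPKM is that estimate per length of transcript and per depth of the sample. A gene that a file does not list was taken as 0, since the files list no gene at a count of 0. The 12 fibroblast identity markers, such as the collagen genes Col1a1 and Col1a2, summed to 20.9 to 24.7 FPKM in −F, 285.3 to 295.4 in F, 617.7 to 622.8 in F2i and 61.4 to 62.9 in NB2i. Vim, which ESCs can also express, made up most of the NB2i sum at 59.3 FPKM. The sum of 10 pluripotent cell markers lay between 4230 and 4622 FPKM over all 8 samples. Dppa5a gave the largest part, with a mean of 1846 FPKM in −F and 2276 in F2i, so the sum hides changes of lower markers. By edgeR (adjusted p below 0.05, 2-fold or more), 1 marker was lower and 0 higher in F2i against F, and 2 and 0 in NB2i against −F. Utf1, named as the lowest, had a log2 of −2.18 in the first and −3.275 in the second.

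Fibroblasts build and remodel connective tissue. They secrete collagens and the proteins that bind and cross-link them, and carry surface proteins through which other cells attach. MEFs used as feeders lay down matrix beneath ESC colonies and secrete factors into the medium. Among the 10 genes, Postn, Lox, Dcn and Lum act in the matrix. Thy1 and Vcam1 act at the cell surface, and Sdpr coats small pits of the cell membrane. Serpinf1 and Enpp2 are secreted proteins with effects on other cells, and Dnm3os is a noncoding RNA that carries microRNAs.

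In 9 of the 10 genes both F samples were above both −F samples, and Enpp2 was the exception. In all 10, both F2i samples were above both NB2i samples. These contrasts served to choose the genes, so nothing is read from the counts. By a different rule, 5.59% of the 15287 genes tested were higher and 1.65% lower in F than in −F. That rule was edgeR with an adjusted p below 0.05 and a change of 2-fold or more. The shares were 13.3% higher and 6.01% lower in F2i against NB2i. They are no scale for the samples without overlap, for which no share over all genes is given. At 0 in both samples were 4 of the genes in −F (Vcam1, Sdpr, Lum and Dnm3os) and 6 in NB2i (Postn, Vcam1, Sdpr, Enpp2, Dcn and Lum). Enpp2 went against the label of a feeder gene, with its highest level in −F. Thy1 and Serpinf1 were also read in the cultures without feeders, in each sample at 24 counts or more.

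**Figure D1:**
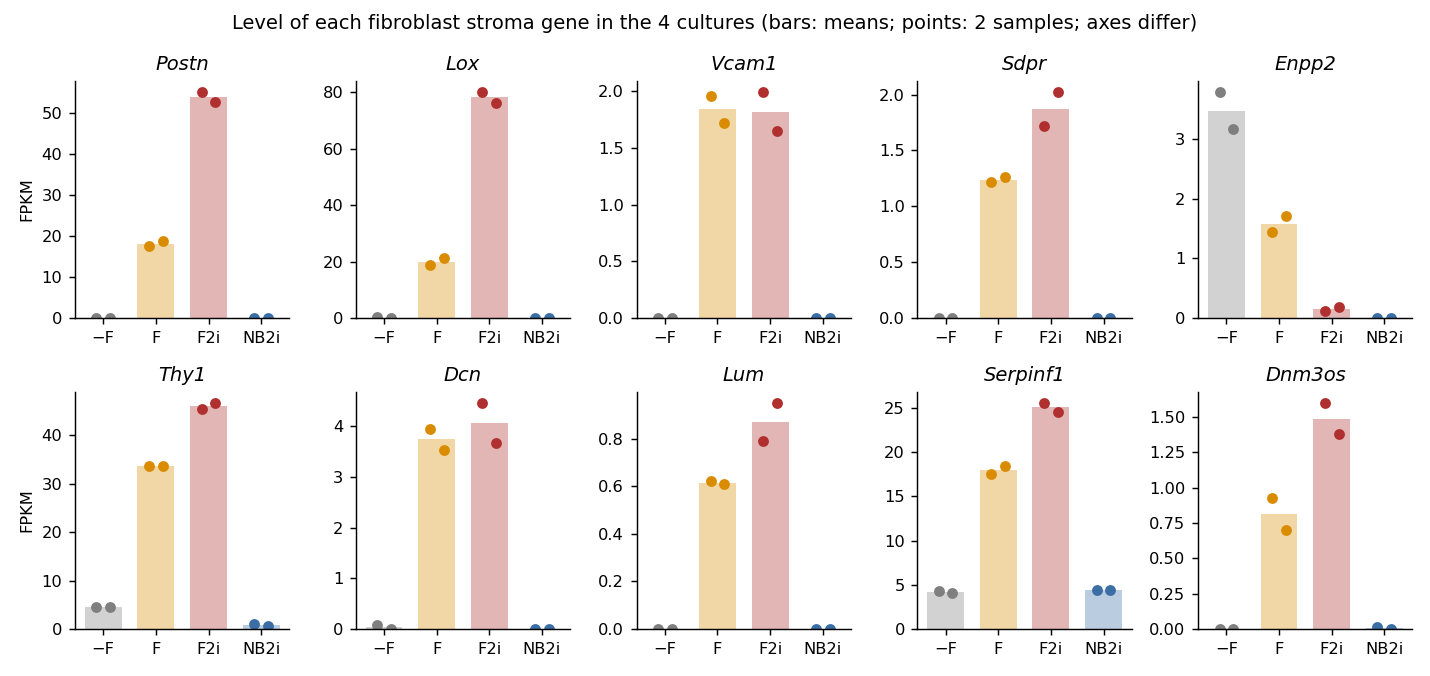
FPKM (vertical axes, from 0, a separate scale in each panel) of the 10 genes in the 4 cultures. Bars are means and points the 2 samples of each culture. Both F samples were above both −F samples in 9 genes, while Enpp2 was highest in −F at 3.78 and 3.16 FPKM.

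Within the cultures with feeders, the genes did not rise by 1 common factor when 2i was present. By edgeR's quasi-likelihood test over all 15287 genes, 2 of the 10 were higher (Lox and Postn) and 1 lower (Enpp2) in F2i than in F with an adjusted p below 0.05 and a change of 2-fold or more. Of all genes tested, 6.44% were higher and 7% lower by that rule. At an adjusted p under 0.05 without a fold minimum, 6 were higher and 1 lower, beside 27.3% and 27.4% of all genes. The other 3 did not pass the test (Lum, Dcn and Vcam1). The median log2 fold change of the 10 genes was 0.53, and that of all genes was −0.0028. The F2i to F ratio was named together with the genes and was known when they were chosen. The adjusted p-values therefore measure the change against the spread between these samples and are no independent evidence about the choice. All 10 genes passed the filter of at least 10 counts in at least 2 samples, and those absent without feeders passed it through F and F2i alone.

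**Figure D2:**
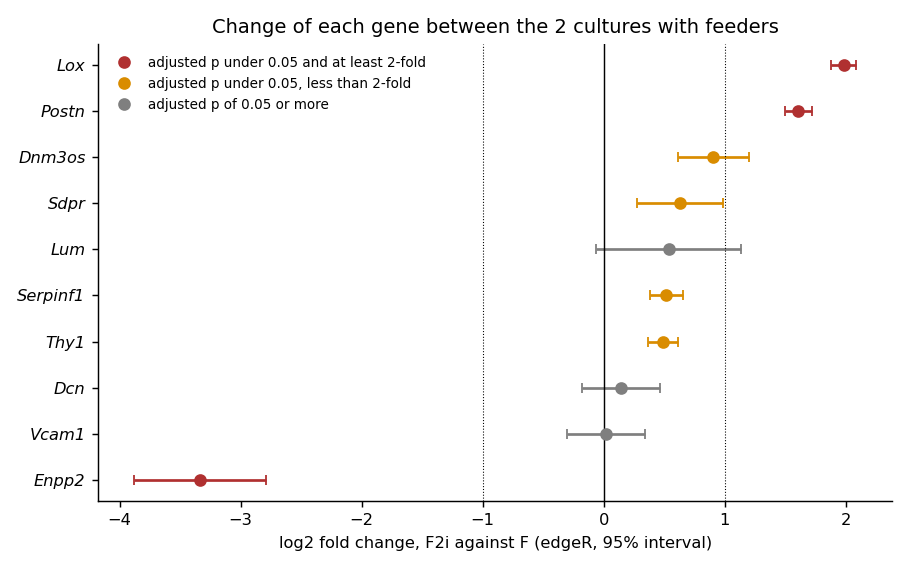
Log2 fold change of each gene in F2i against F (horizontal axis) from edgeR, with its 95% interval. Colours give the side of the test, and dotted lines mark a 2-fold change. Lox stood highest at 1.98 and Enpp2 lowest at −3.33, with the intervals of Vcam1, Dcn and Lum crossing 0.

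Postn encodes periostin, a matrix protein that binds collagen and integrins. It lies on chromosome 3 from 54361109 to 54391037, plus strand. Its level was 0.17 and 0.11 FPKM in −F, 17.5 and 18.8 in F, 55.0 and 52.7 in F2i, and 0 in both NB2i samples. The groups did not overlap, and the levels ran from 0 in NB2i and near 0 in −F up to the highest values in F2i. The mean in F was 129.7 times that in −F. Against a floor of 3 counts per library, F2i was at least 1169-fold above NB2i. F2i was above F by a log2 fold change of 1.61 (SE 0.05, adjusted p = 8.2e-16, edgeR), a ratio of 2.97 in mean FPKM, and it ranked 419th of the genes tested. The RefSeq promoter table (GRCm38.p6) held windows for 4 of the 10 genes, each from 250 bases before to 50 after a start site. Postn had windows at 2 start sites, and the one that lies 2 bases from the start of the annotated gene is shown because its level changed by 2-fold or more between the cultures with feeders. In capitals is TATAAA, found at position −26 from the start on the plus strand, which on either strand occurs in 13.6% of all 32851 promoter windows.
Postn, chr3:54360857-54361156, plus strand: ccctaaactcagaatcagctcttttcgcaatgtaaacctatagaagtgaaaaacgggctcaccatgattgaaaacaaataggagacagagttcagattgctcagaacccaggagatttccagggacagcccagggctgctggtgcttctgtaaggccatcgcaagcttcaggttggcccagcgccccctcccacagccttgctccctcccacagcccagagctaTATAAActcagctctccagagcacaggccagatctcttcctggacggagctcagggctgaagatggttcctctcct
The other Postn window held CCAAT on the minus strand and no TATAAA. Neither window held TGANTCA (AP-1), CATTCC (TEAD) or CTTTGAT (TCF/LEF) on either strand, letters present in 7.81%, 14.7% and 3.73% of all windows. A match is a description of the letters and says nothing about binding.

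Lox encodes lysyl oxidase, the enzyme that cross-links collagen and elastin. It lies on chromosome 18 from 52516067 to 52529867, minus strand. Its level was 0.28 and 0.20 FPKM in −F, 18.8 and 21.2 in F, 79.9 and 76.3 in F2i, and 0.01 and 0 in NB2i. The F2i samples held the highest FPKM of any of the 10 genes, with 7621 and 7347 expected counts, and the NB2i samples held 1 and 0 counts. The mean in F was 83.2 times that in −F. The ratio of F2i to NB2i was 15160 with a counting interval from 2721 to 598900, wide because it rests on 1 count. F2i was above F by a log2 fold change of 1.98 (SE 0.05, adjusted p = 2.8e-18, edgeR), which ranked 250th of all genes. The FPKM ratio was 3.91, and single pairs of samples gave 3.61 to 4.25. An antisense transcript, AC161119.1, overlaps an exon of Lox on the other strand. The library kit is not stated to mark strand, so reads of the overlapping stretch cannot be told apart. Other genes of the family, taken as a list of 7 with the lysyl hydroxylases, gave 0 genes higher and 0 lower at the 2-fold rule of edgeR in F2i against F, with a median log2 of 0.30. At an unadjusted p under 0.05 they gave 4 higher and 2 lower, and DESeq2 called 1 higher where limma called 0. The list's highest log2, named as such, was 1.00 in Loxl2, and Plod2, which hydroxylates collagen lysines, was at 17.7 and 18.8 FPKM in F and 19.2 and 19.9 in F2i.

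Dcn (decorin) and Lum (lumican) encode small leucine-rich proteoglycans that bind collagen fibrils. They are neighbours on the plus strand of chromosome 10, Dcn from 97479609 to 97518143 and Lum from 97565128 to 97572703. Dcn was at 0.08 and 0 FPKM in −F, 3.95 and 3.54 in F, 4.46 and 3.67 in F2i, and 0 in both NB2i samples. The F and F2i samples overlapped, and both stood apart from the cultures without feeders. Against −F, F was 98.4-fold higher with a counting interval from 33.3 to 479.8, since −F held 3 and 0 counts. The change from F to F2i did not pass the test (log2 0.15, 95% interval −0.18 to 0.47, adjusted p = 0.45, edgeR). Lum was the lowest of the 10 in F, at 0.62 and 0.61 FPKM with 26 counts in each sample. It was at 0.79 and 0.95 FPKM in F2i and at 0 in all 4 samples without feeders. Both F2i samples were above both F samples, but the change did not pass the test (log2 0.54, 95% interval −0.07 to 1.14, adjusted p = 0.12, edgeR). It passed at 0.048 in limma on log2(FPKM + 1). At these counts a difference up to 2.20-fold lay within the interval. Of 6 other small leucine-rich proteoglycans tested, 4 were higher in F2i at the 2-fold rule and 2 were not called, with a median log2 of 2.73. Prelp was at 0.68 and 0.75 FPKM in F and 5.71 and 5.60 in F2i (log2 3.02, adjusted p = 6.5e-14, edgeR). Ogn (osteoglycin) was at 0.91 and 1.05 in F and 5.23 and 5.13 in F2i (log2 2.44, adjusted p = 7.6e-11, edgeR). Bgn (biglycan) was the most abundant, at 97.5 and 100.5 FPKM in F and 133.8 and 130.7 in F2i, a ratio of 1.34. Aspn (asporin), picked after its values were seen, was at 0.79 and 0.46 FPKM in F and 5.10 and 5.97 in F2i. The log2 changes of the proteoglycans thus ran from 0.15 in Dcn to 3.40 in Fmod (fibromodulin, named as the highest).

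Thy1 encodes a surface glycoprotein of fibroblasts, neurons and thymocytes. Its gene spans chromosome 9 from 44043384 to 44048579, plus strand. Its level was 4.45 and 4.51 FPKM in −F, 33.7 in both F samples, 45.4 and 46.7 in F2i, and 1.05 and 0.67 in NB2i. No group overlapped another, and Thy1 was the highest of the 10 in F and in −F. F was 7.52 times −F, and F2i was 53.6 times NB2i. The change from F to F2i was a log2 of 0.49 (SE 0.06, adjusted p = 4.9e-07, edgeR), a ratio of 1.37. Thy1 was read in cultures without feeders, with 159 and 161 counts in −F. After the level of a feeder-free culture was subtracted (−F from F without 2i, NB2i from F2i with it), a step added after the data were seen, the ratio was 1.55. The 2 levels subtracted were unlike, with means of 4.48 FPKM in −F and 0.86 in NB2i. NB2i also lacks the serum and gelatin of −F, so this ratio depends on the choice of culture subtracted.

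Vcam1 encodes an adhesion molecule that binds integrin α4β1 on other cells. It lies on chromosome 3 from 116109949 to 116129688, minus strand. Its level was 0 in both −F samples, 1.96 and 1.72 FPKM in F, 1.99 and 1.65 in F2i, and 0 in both NB2i samples. The samples with feeders overlapped, and no count of Vcam1 was listed in any sample without them. Against the floor of 3 counts per library, F was at least 43.6-fold above −F and F2i at least 42.5-fold above NB2i. Between F2i and F the log2 fold change was 0.02 (95% interval −0.30 to 0.34, adjusted p = 0.92, edgeR), a value whose sign turned under 4 alternatives. That interval, 0.811 to 1.27 as a fold, lay wholly below the 3.67 to 4.25 of Lox and the 2.82 to 3.29 of Postn. A transcript on the other strand, Gm43109, overlaps an exon of Vcam1. A list of 10 genes drawn up as adhesion partners of Vcam1 and Thy1 holds integrin chains and other adhesion molecules (Icam1, Alcam, Mcam and Cd44). Of the 10, 1 was lower (Itgb7, an integrin chain named for its call, log2 −1.15) and 9 were not called at the 2-fold rule, with a median of 0.15. The integrin chain Itgb1 was at 69.1 to 75.1 FPKM in F and F2i.

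Sdpr, also named Cavin2, encodes a coat protein of caveolae, the small pits of the cell membrane. The gene is on chromosome 1 from 51289126 to 51302960, plus strand. Its level was 1.22 and 1.26 FPKM in F and 1.72 and 2.02 in F2i, and it was at 0 in all 4 samples without feeders. Both F2i samples were above both F samples, and F was at least 26.5-fold above −F by the floor. The change from F to F2i was a log2 of 0.63 (SE 0.17, adjusted p = 0.0038, edgeR), a ratio of 1.51. Its counts were few, 76 and 80 in F against 107 and 127 in F2i. The call of Sdpr was lost with DESeq2 (adjusted p = 0.088), with limma on log2(FPKM + 0.1) (0.071) and without F2i replicate 2 (edgeR, 0.062). The Sdpr promoter is shown beside that of Postn because Sdpr was likewise near or at 0 without feeders but changed less between F and F2i. It held CCAAT (in capitals) at position −140 from the start on the plus strand, letters found on either strand in 37.4% of all windows, and no TATAAA.
Sdpr, chr1:51288876-51289175, plus strand: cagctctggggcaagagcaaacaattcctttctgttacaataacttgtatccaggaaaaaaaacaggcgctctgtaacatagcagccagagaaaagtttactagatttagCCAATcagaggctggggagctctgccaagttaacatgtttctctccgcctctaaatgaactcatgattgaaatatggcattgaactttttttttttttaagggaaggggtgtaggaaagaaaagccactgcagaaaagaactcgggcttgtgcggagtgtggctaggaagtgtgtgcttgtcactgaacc
Among 7 other caveola components, 1 was higher in F2i at the 2-fold rule and 6 were not called, with a median log2 of 0.11. Cav1, the main structural protein of caveolae, was at 0.48 and 0.40 FPKM in −F, 8.22 and 8.56 in F, 11.02 and 11.52 in F2i and 0 in both NB2i samples. Its ratio of F2i to F, 1.34, lay below that of Sdpr. Ptrf (cavin-1) was lower in F2i, at 14.55 and 13.04 FPKM against 17.0 and 17.1 in F (log2 −0.27, adjusted p = 0.0011, edgeR), and it was read in every culture.

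Serpinf1 encodes pigment epithelium-derived factor, a secreted serpin that inhibits blood vessel growth. Its gene spans chromosome 11 from 75409769 to 75422701, minus strand. Its level was 4.31 and 4.08 FPKM in −F, 17.6 and 18.4 in F, 25.6 and 24.6 in F2i, and 4.39 and 4.36 in NB2i. The cultures without feeders stood close together, NB2i slightly above −F in both samples, while F and F2i stood apart from them and from each other. F was 4.29 times −F and F2i was 5.74 times NB2i, the smallest such ratios among the genes that were higher with feeders in serum. The change from F to F2i was a log2 of 0.52 (SE 0.07, adjusted p = 7.1e-07, edgeR), a ratio of 1.39 that became 1.5 after the feeder-free level was subtracted. Serpinf1 is shown because it kept a level in every culture. Its window lies around a start site 78 bases from the annotated 5′ end. It held CCAAT (in capitals) on the gene's own strand at positions −241, −160 and −148 from the start, and no TATAAA.
Serpinf1, chr11:75422574-75422873, minus strand: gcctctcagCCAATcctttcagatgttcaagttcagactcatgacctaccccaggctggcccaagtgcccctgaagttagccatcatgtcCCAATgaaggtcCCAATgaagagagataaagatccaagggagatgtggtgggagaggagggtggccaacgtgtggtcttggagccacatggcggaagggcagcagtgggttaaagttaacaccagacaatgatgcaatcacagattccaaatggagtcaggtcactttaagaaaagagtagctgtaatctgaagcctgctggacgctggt
Of 6 other serpins tested, 1 was higher in F2i at the 2-fold rule and 5 were not called, with a median log2 of 0.36.

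Enpp2 encodes autotaxin, the secreted enzyme that makes lysophosphatidic acid, a lipid signal. The gene is on chromosome 15 from 54838901 to 54952892, minus strand. Its level was 3.78 and 3.16 FPKM in −F, 1.44 and 1.71 in F, 0.12 and 0.18 in F2i, and 0 in both NB2i samples. Levels fell from −F to F to F2i to NB2i, and no group overlapped another. The −F mean was 2.20 times the F mean and 23.1 times the F2i mean. Expected counts were 254 and 212 in −F, 96 and 115 in F, and 8 and 12 in F2i. The fall from F to F2i was a log2 of −3.33 (SE 0.26, adjusted p = 8.4e-10, edgeR), 10.5-fold in mean FPKM, and 69th from the bottom of all genes. With most of its counts in the culture without feeders, Enpp2 did not follow the presence of feeders in serum. A transcript on the other strand, Gm26684, overlaps an exon of Enpp2. The list of the lysophosphatidic acid pathway also holds Enpp1 and Enpp3, relatives of Enpp2. Of its 9 genes tested, 1 was higher (the receptor gene Lpar1, named for its call, log2 3.31) and 3 lower in F2i, with a median of −0.48. The 3 lower, named for their calls, were Enpp3, Enpp1 (log2 −1.54) and the receptor gene Lpar6 (log2 −1.47). The median is thus not that of lysophosphatidic acid genes alone. Enpp3, a relative of Enpp2 that cleaves nucleotides, was at 36.1 and 36.2 FPKM in −F, 26.7 and 25.7 in F, 2.37 and 2.64 in F2i, and 2.28 and 2.12 in NB2i. Its F2i to F change was a log2 of −3.35 (adjusted p = 3.8e-19, edgeR). Plpp1 and Plpp3, phosphatases that degrade lysophosphatidic acid, were higher in F2i at ratios of 1.72 and 1.26 (log2 0.82 and 0.37, adjusted p = 1.1e-08 and 8e-06, edgeR). Between the cultures without feeders they also differed. Plpp1 was at 12.9 and 11.6 FPKM in −F and 30.5 and 34.5 in NB2i, and Plpp3 at 12.2 and 11.5 in −F and 25.6 and 25.3 in NB2i. For Lpar1, NB2i was above −F by a log2 of 4.04.

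Dnm3os is a noncoding transcript on chromosome 1 from 162217623 to 162225550, plus strand, inside the gene Dnm3 and opposite to it. It is the host of 2 microRNA genes, Mir199a-2 and Mir214, which start 222 and 5775 bases into it by their first mature arm. Its level was 0 in both −F samples, 0.93 and 0.70 FPKM in F, 1.60 and 1.38 in F2i, and 0.01 and 0 in NB2i. Both F2i samples were above both F samples, and the −F samples held no count. F was at least 45.3-fold above −F, and F2i was 490.3 times NB2i with a counting interval from 87.6 to 19400. The change from F to F2i was a log2 of 0.91 (SE 0.14, adjusted p = 1.5e-05, edgeR), a ratio of 1.83. Exons of Dnm3os and Dnm3 do not overlap, and Dnm3, picked after its values were seen, reached at most 0.10 FPKM in any sample. The mature microRNAs are shown because they are the known products of the transcript, with the seed (bases 2 to 8) in capitals and sequences from RefSeq. Mature microRNAs carry no poly-A tail, and these libraries measured the host transcript.
miR-199a-5p: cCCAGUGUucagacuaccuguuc
miR-199a-3p: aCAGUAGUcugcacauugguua
miR-214-5p: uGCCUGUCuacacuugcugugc
miR-214-3p: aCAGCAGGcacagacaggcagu
No seed was shared among the 4. The promoter of Dnm3os held none of the 5 motifs searched, TATAAA and CCAAT included. Of 5 other genes tested in the list of the locus and of mesenchymal transcription factors, 1 was higher in F2i at the 2-fold rule (Snai2, named for its call, log2 1.30) and 4 were not called. Prrx1, a transcription factor of limb and face mesenchyme, was at 3.09 and 3.82 FPKM in F and 6.23 and 5.80 in F2i and at 0.09 or less without feeders.

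By FPKM, the order of the genes changed between F and F2i. In F, Thy1 stood first, followed by Lox, Postn and Serpinf1, whose neighbours in that order overlapped between samples. Dcn, Vcam1, Enpp2, Sdpr, Dnm3os and Lum followed without overlap. In F2i, Lox was first, then Postn, Thy1, Serpinf1 and Dcn without overlap, then Sdpr and Vcam1, which overlapped, then Dnm3os, Lum and Enpp2. Without feeders the list was short. Thy1, Serpinf1 and Enpp2 were the only genes of the 10 above 1 FPKM in both −F samples, and Serpinf1 the only one in both NB2i samples. Replicates did not differ in 1 common direction, since 5 genes were higher in F replicate 1 and 5 in replicate 2, and 6 and 4 in F2i. The largest ratio between replicates of a gene was 1.33 in F and 1.5 in F2i, the latter in Enpp2.

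The summed level of the 10 genes was 13.1 and 12.1 FPKM in −F, 97.7 and 101.6 in F, 216.6 and 210.2 in F2i, and 5.46 and 5.03 in NB2i. Lox and Postn made up 38.3% of the sum in F and 61.9% in F2i. The ratio of the F2i to the F sum was 2.14. It was 1.70 without Lox, and the median of the single ratios was 1.40. As a reading of feeder RNA, the F2i to F ratio thus depended on the gene, from 0.99 in Vcam1 to 3.91 in Lox, which is 3.95 times as much, with Enpp2 far below at 0.0952. Which of these ratios stands for the amount of feeder RNA was not tested. Markers of other cells moved beside them. Lyz2, a macrophage gene, was at 0.05 and 0 FPKM in −F, 8.63 and 8.44 in F and 0.61 and 1.00 in F2i. Of 5 macrophage markers tested, 3 were lower in F2i against F by edgeR and 2 were not called. DESeq2 called 2 of these markers lower, limma 1 on log2(FPKM + 1) and 2 on log2(FPKM + 0.1). The summed level of the 8 in the files was 6.22 to 7.0 FPKM in −F, 19.7 to 20.5 in F, 11.5 to 12.7 in F2i and 18.4 to 19.1 in NB2i, where Cd68 gave nearly all of it and Csf1r, Adgre1 and Tyrobp were at 0. Of 7 endothelial markers tested, 4 were higher and 2 lower by edgeR and DESeq2, and limma called 3 or 4 higher and 1 lower. Their summed level was 23.3 to 24.4 FPKM in F and 49.5 to 51.3 in F2i, but also 62.5 to 63.0 in NB2i without feeders. Of 4 skeletal muscle markers 0 were called by edgeR, DESeq2 or limma, and 3 were higher at an unadjusted p under 0.05. Of 5 cartilage and bone markers 0 were called by those tools, and 2 were higher and 2 lower at that p. In addition, 4 of 8 primitive endoderm markers and 2 of 7 early mesoderm markers were lower by edgeR and DESeq2. Limma called 1 and 1 lower on log2(FPKM + 1), and 4 and 1 on log2(FPKM + 0.1). Among all genes, 6.44% were higher and 7% lower in F2i against F by edgeR. The part of these other markers in the ratios was not tested.

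**Figure D3:**
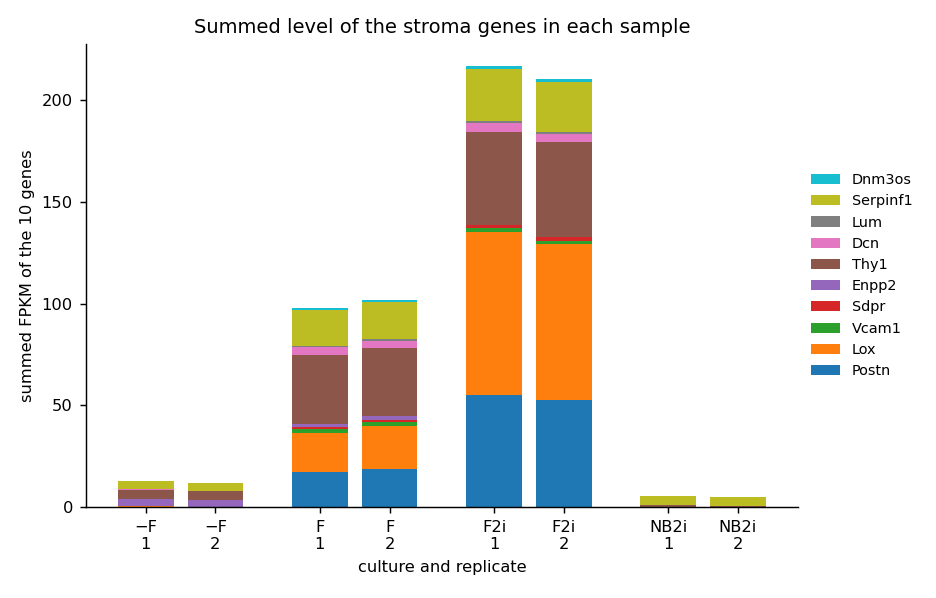
Summed FPKM of the 10 genes (vertical axis) in each of the 8 samples, by culture and replicate, with 1 colour per gene. The sum was 97.7 and 101.6 in F and 216.6 and 210.2 in F2i, and the parts of Lox and Postn grew more than the others.

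Other stromal genes were counted in 10 lists drawn up around the 10 genes, with earlier results known, giving 80 tested genes and leaving the 10 out. In F against −F, 43 were higher and 0 lower at the 2-fold rule of edgeR, with a median log2 of 1.34 beside 2.66e-05 for all genes. Among all genes 5.59% were higher and 1.65% lower. In F2i against NB2i, 53 were higher and 0 lower, with a median of 2.85, beside 13.3% higher and 6.01% lower among all genes. DESeq2 and limma also called 0 lower in both comparisons, and at an unadjusted p under 0.05 edgeR had 7 lower in the first and 12 in the second. In F2i against F, 19 were higher and 5 lower, with a median of 0.46. These are 23.75% and 6.25% of the 80, beside 6.44% higher and 7% lower among all genes. Between the cultures without feeders, NB2i against −F, 15 were higher and 31 lower with a median of −0.54, beside 11.1% higher and 16.1% lower among all genes. The comparisons share samples, so they are given side by side only. All 12 fibroblast identity markers were higher in F than in −F by edgeR, 11 by DESeq2, 9 by limma on log2(FPKM + 1) and 11 on log2(FPKM + 0.1). In F2i against NB2i, edgeR and DESeq2 called all 12 higher and limma 9 and 10. In F2i against F, 4 of these 12 were higher and 1 lower, Pdgfra, named for its call, a receptor of fibroblasts and of primitive endoderm, at a log2 of −1.05. Col1a1, the main chain of type I collagen, was at 2.59 and 2.47 FPKM in −F, 66.0 and 69.6 in F, 247.8 and 239.3 in F2i, and 0.55 and 0.51 in NB2i. Its F2i to F ratio, 3.59, lay between those of Postn and Lox. Vim was at 137.3 and 138.7 FPKM in F and 180.9 and 185.1 in F2i, a ratio of 1.33 near that of Thy1. S100a4, picked after its values were seen, was at 11.7 and 12.1 in F and 10.96 and 12.96 in F2i, with overlap as in Vcam1 and Dcn.

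Among 12 matrix proteins, 5 were higher in F2i against F and 7 were not called, with a median log2 of 0.85. Sparc and Fn1, a collagen-binding protein and fibronectin, were abundant in every culture. Sparc was at 159.6 and 161.4 FPKM in F and 450.0 and 462.5 in F2i, but also at 456.4 and 456.7 in NB2i without feeders, so its level did not follow that of Postn or Lox across the cultures. Of 12 fibrillar collagens and their processing genes, 5 were higher and 7 were not called, with a median of 0.70.

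**Figure D4:**
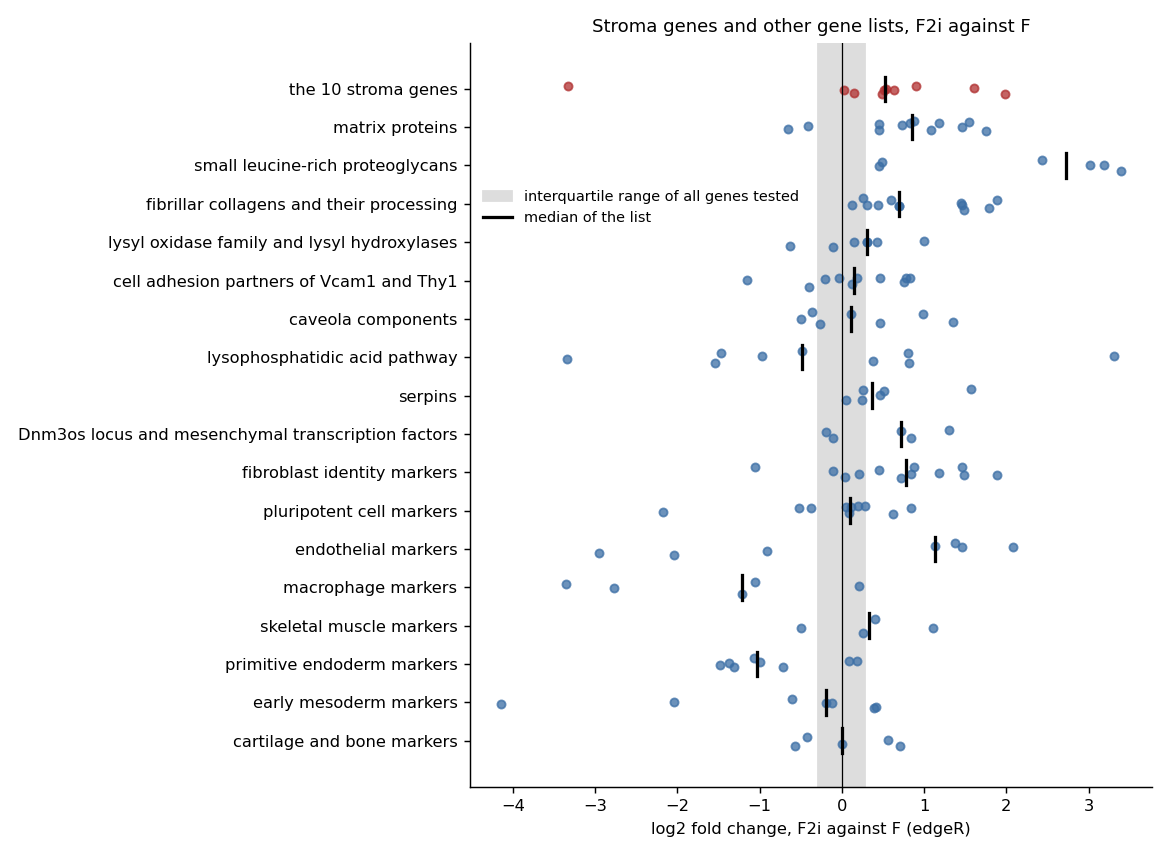
Log2 fold change in F2i against F (horizontal axis) of the 10 stroma genes, of 10 lists of stromal and related genes and of lists of markers of other cells, with 1 point per tested gene, a bar at the median and a band for the interquartile range of all genes tested. The 10 genes have a median of 0.53 and the small leucine-rich proteoglycans 2.73. The list of the lysophosphatidic acid pathway, which also holds Enpp1 and Enpp3, has a median of −0.48.

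Over the 8 samples, the pattern of each gene was compared with the mean of the other 9 as log2(FPKM + 0.1). Pearson's r was 0.971 to 0.992 for 9 genes and 0.0580 for Enpp2, and 4 conditions of 2 samples give few independent points. The levels with and without feeders were known when the genes were chosen. A high r among them is therefore a description and no evidence that they form a set. The genes outside the 10 with the pattern most like their mean were Col6a1 (r = 0.999), Usp17lb (0.998), Thbs2 (0.998), Col1a2 (0.996) and Axl (0.996), of 12055 genes with at least 1 FPKM in F. In all, 242 genes had an r of 0.95 or more. Col6a1, a chain of type VI collagen, was at 0.38 and 0.39 FPKM in −F, 11.1 and 10.3 in F, 15.4 and 14.7 in F2i and 0.04 in both NB2i samples. Thbs2, thrombospondin-2 of the matrix, was at 6.70 and 7.68 FPKM in F and 15.4 and 14.3 in F2i. The receptor tyrosine kinase gene Axl was at 8.67 and 8.40 in F and 8.10 and 8.32 in F2i, a change whose sign was not stable when a sample was left out. The F2i to F ratios of these 5 genes ran from 0.962 (Axl) to 2.69 (Col1a2). Usp17lb belongs to a family of near-identical copies, between which the counting divides reads, and its value is uncertain. The paper names Usp17l among the 2-cell embryo-like genes that it found enriched in ESCs with feeders. Which cells gave the RNA of these 5 genes was not tested.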

How the data were processed

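Poly-A RNA of 8 N33 ESC samples was sequenced as single-end reads on a BGISEQ-500. Bowtie2 (mapping to mm10) and RSEM (counting) were the authors' tools (versions not given in the sources used here). Deposited for each sample were an expected count and an FPKM value per gene. Of the expected counts deposited by the authors, 29.8% were not whole, and they were rounded here. Counts were tested with edgeR 4.0.16 in R 4.3.3 (quasi-likelihood, TMM, 1 fit of all 8 samples, Benjamini-Hochberg adjustment) over the 15287 genes that reached 10 counts in 2 samples or more. Alternatives were DESeq2 1.42.0, its size factors in edgeR, other filters, only the groups compared, a replicate block, limma 3.58.1 on log2(FPKM + 1) or (FPKM + 0.1), and each sample left out. The scripts were tested on simulated data.

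The members and lists were chosen with earlier results of these data known. Named besides the 10 genes were the 3 most abundant genes of each list and the 5 with the most similar pattern, and genes picked after their values were seen, as a called or extreme gene of a list or otherwise, are marked in the text. The biological coefficient of variation was 3.25%, and adjusted p-values come from the model: with duplicates, an exact permutation p is never under 0.333. Samples with the same replicate number were not paired (mean correlation of deviations −0.002). Total counts were similar between samples. Counting intervals and floors cover counting error only, while the intervals from edgeR also include the spread between samples. Promoter and microRNA sequences are from RefSeq (GRCm38.p6), and coordinates from GENCODE M21 for mm10.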

Additional observations from a re-analysis of the deposited data

Results flagged for a closer look

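Enpp2 differed in opposite directions in F against −F and in F2i against NB2i. In serum, F was below −F by a difference in mean FPKM of −1.895, with both F samples below both −F samples. In the presence of 2i, F2i was above NB2i by 0.15 FPKM, with 8 and 12 counts against 0 in both samples. The difference between these contrasts was not tested, and F2i and NB2i also differ in serum and coating.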

How the results depend on the processing

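The calls of Lox, Postn and Enpp2 in F2i against F held their direction and side of the threshold under each alternative in which they were tested, Lox from 1.90 to 2.07 on the log2 scale, Postn from 1.52 to 1.67 and Enpp2 from −3.64 to −1.16. With at least 10 counts in every sample, only Thy1 and Serpinf1 of the 10 genes were tested, which left 0 called higher and 0 lower. Without a fold minimum 6 were higher (this setting, the subtraction below and the sum without Enpp2 were chosen after seeing the data). The same filter in every sample left 55 stromal list genes and lowered their calls to 10 higher in F2i against F, 20 higher in F against −F, 29 higher in F2i against NB2i and 17 lower in NB2i against −F, since fewer genes were tested. On log2(FPKM + 1), limma called 12 higher and 2 lower in F2i against F, 25 higher in F against −F, and 8 higher and 15 lower in NB2i against −F, and on log2(FPKM + 0.1) it called 3 lower in F2i against F. A fold on these scales understates the change of low genes. With single samples left out, 0 to 1 stromal genes were lower in F2i against NB2i, the 1 without NB2i replicate 2. The ratio of summed FPKM, 2.14, was 1.40 as the median of the ratios, 2.64 in TMM-normalised CPM, 1.70 without Lox, 2.17 without Enpp2 and 2.39 after subtraction of the feeder-free level. That level came from −F for F and from NB2i for F2i, cultures that also differ in serum, coating and 2i. The sign of Vcam1 turned to −0.0115 and −0.0179 in the limma fits, and with single samples left out it ranged from −0.116 to 0.150, below 0 without F replicate 2 or F2i replicate 1. S100a4 ranged from −0.0827 (without F2i replicate 2) to 0.162, and Axl from −0.0466 to 0.0114, above 0 without F replicate 1 or F2i replicate 1. The cause was not tested. The replicate numbers did not pair the samples (correlations of −0.0452 to 0.0537 over 6 pairs of groups), and with the replicate block 2 of the 10 genes were called higher and 1 lower, with 19 and 5 stromal list genes. Over the alternatives for single genes, 730 values were on the same side of the threshold, 15 fell short of it and 12 newly passed it. Depth limits Lum and, in F2i, Enpp2 most, which rest on 26 to 40 and on 8 and 12 counts.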
